A study of Rattus norvegicus with 38 samples.

Results

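Killer lymphocytes carry granzymes, perforin and the proteins that pack and trigger them, and 8 such genes were followed in hearts and blood of transplanted rats: Gzma, Gzmb, Gzmk, Gzmm, Prf1, Nkg7, Srgn and Klrk1. Members were found through the platform annotation by current or former symbol (RNKP-1 for Gzmb, Cyta for Prf1, Pgsg for Srgn, NKG2D and Nkrp2 for Klrk1). On the heart array (RAE230A) 7 of the 8 genes had a probeset of their own, 7 probesets of 15866 tested, since the only Gzma probeset was on the blood array (RAE230 2.0). On that array all 8 genes were measured, with 9 of 31042 probesets, because Gzmb had a second one. A further probeset on both arrays lists Gzmb together with LOC100361261 and is given apart. DA (donor and recipient) and BN (recipient) are inbred rat strains.

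The 38 arrays held 8 groups. Transplanted hearts were all of strain DA and sat in the abdomen of the recipient: 5 allografts in BN recipients and 4 isografts in DA recipients. From the same recipients came 5 native BN hearts and 4 native DA hearts, all taken on post-transplant day 6. Peripheral blood mononuclear cells (PBMC), isolated on a density gradient, came from 5 BN allograft recipients and 9 DA isograft recipients on the same day, and from 3 untransplanted BN and 3 untransplanted DA rats. Strain of recipient and kind of graft therefore coincide in every transplanted comparison, and no group had a BN graft or a BN rat with an isograft. Strains of the hearts are those given in the study's methods.

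The lytic granules of cytotoxic T cells and natural killer (NK) cells hold serine proteases, the granzymes, on a scaffold of the proteoglycan serglycin, encoded by Srgn. On contact with a target cell the granules are released, perforin (Prf1) opens the target membrane and granzymes enter, where granzyme B cuts caspases and other substrates. Nkg7 is a membrane protein of these granules needed for their release, and Klrk1 encodes NKG2D, an activating receptor for stress-induced ligands. Srgn is also made by mast cells, macrophages, neutrophils and platelets, so it is the member least limited to killer cells. Neighbouring genes matter for reading a probeset by name: Gzma and Gzmk lie side by side on chromosome 2 with 0 protein-coding genes between them, Gzmb lies next to Gzmc on chromosome 15, and Klrk1 lies between Klrd1 and Klrc3 on chromosome 4 in assembly GRCr8.

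Promoter sequences of the pair that works together in killing, Gzmb and Prf1, are printed because they share a motif. Both genes were higher in allografts and lower in untransplanted BN blood, but so were other members. Over the 18 hearts, Pearson's r of Gzmb with Prf1 was 0.52, the lowest of the member pairs. Both promoters are RefSeq sequences of GRCr8, 300 bases from 250 before to 50 after the gene start, and all 8 members were matched by symbol. Capitals mark the core of the cyclic AMP response element, TGACGTC, or its reverse complement. The Gzmb window is chr15:34462420-34462719 on the minus strand and the Prf1 window is chr20:29788790-29789089 on the plus strand.
Gzmb: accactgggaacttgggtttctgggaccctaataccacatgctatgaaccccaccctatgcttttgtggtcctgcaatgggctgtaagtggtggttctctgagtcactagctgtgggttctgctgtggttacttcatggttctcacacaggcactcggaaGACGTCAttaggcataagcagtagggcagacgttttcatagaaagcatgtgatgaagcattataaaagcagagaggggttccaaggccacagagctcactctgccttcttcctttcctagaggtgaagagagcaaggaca
Prf1: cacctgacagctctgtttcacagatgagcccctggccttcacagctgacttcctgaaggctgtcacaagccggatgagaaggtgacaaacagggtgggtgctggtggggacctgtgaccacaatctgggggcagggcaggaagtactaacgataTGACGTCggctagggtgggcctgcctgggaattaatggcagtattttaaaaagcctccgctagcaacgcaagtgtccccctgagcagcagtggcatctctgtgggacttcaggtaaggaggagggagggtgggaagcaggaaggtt
The motif began 90 bases before the start of Gzmb and 96 bases before the start of Prf1. It was in 3.22% of 33469 rat promoters of this length and in 2 of the 8 members. Of the other motifs searched on both strands, TGTGGT (the Runx core) was in 17.3% of all promoters and in 7 members, all but Srgn, with 3 matches in Gzmb. The AP-1 motif TGANTCA was in 7.33% of promoters and in 2 members, Gzmb and Klrk1, and the T-box motif GGTGTG was in 17.9% and in 2, Gzmk and Gzmm. In the member promoters no match overlapped a match of another motif. These matches describe the letters only.

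Each array gives 1 signal per probeset, derived by the authors with MAS5 and divided here by the median of its array, so that a value of 1 array median is the middle probeset of that array. Array medians were 38.3 to 50.8 in hearts and 20.2 to 36.8 in PBMC on the deposited scale. Heart and PBMC arrays were normalized separately, so levels are not set across tissues, and levels of different probesets are not compared with each other. Tests are limma's moderated tests on log2 signals with 1 mean per group. A gene passes when its p, adjusted by Benjamini and Hochberg across the whole array type, does not exceed 0.10. It is called when the change is also 3-fold or more and 1 of both groups has 50% or more of its arrays at or above their median. Cardiomyocyte markers identified the hearts, with 9 of 9 measured markers above the array median in isografts and in native hearts by group median, and none of 9 in any PBMC group.

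The comparison of allografts with isografts sets DA hearts in BN recipients against DA hearts in DA recipients, after the same operation. Recipient cells within the graft are BN in allografts and DA in isografts, so their strain and rejection cannot be told apart here. The paper names strain-linked expression of recipient lymphocytes in the allograft as a possible part of such differences. All 7 measured members were higher in the allografts, from 1.74-fold for Gzmk to 29.0-fold for Gzmb, and 5 of them were called (all but Gzmk and Gzmm). Among all probesets 20.3% passed as higher, 21.2% passed as lower and 3.81% were called higher. The calls of Prf1 and Klrk1 lay close to 3-fold: Prf1 was 2.97-fold after quantile normalization, 2.47-fold with 0.25 array medians added and 2.95-fold without isograft 12, and Klrk1 was 2.89-fold without isograft 13, all still past the test. The median log2 fold change of the members was 1.99, beside 0.02 over all probesets. In bulk tissue, more cells of a type and more RNA per cell cannot be told apart.

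Gzmb, the main effector protease, had 6.58, 6.57, 1.73, 3.03 and 3.88 array medians in allografts 3 to 7, against 0.29, 0.28, 0.20 and 0.02 in isografts 11, 12, 13 and 9. Allograft 5 was the lowest of its group and still lay above every isograft. The log2 fold change was 4.86 (SE 0.70, limma adjusted p = 3.62e-05). Isograft signals were weak, at percentile 21.5 of the array or lower. Without isograft 9 the log2 fold change was 3.93, and with 0.25 array medians added to every signal it was 3.27, both still past the test.

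Prf1, the pore former, had 2.02, 1.95, 1.14, 1.44 and 1.98 array medians in the allografts, against 0.51, 0.43, 0.60 and 0.59 in the isografts. The groups did not overlap, and allografts 5 and 6 were the lowest. The log2 fold change was 1.66 (SE 0.60, limma adjusted p = 0.0407). Native hearts, which share the estimate of the spread, ran from 0.0659 to 0.684 array medians.

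Nkg7 had 9.05, 5.45, 2.65, 3.69 and 4.48 array medians in the allografts, against 0.89, 0.85, 1.25 and 1.10 in the isografts. Allograft 3 stood highest and allograft 5 lowest, as for Gzmb, and no isograft reached any allograft. The log2 fold change was 2.21 (SE 0.30, limma adjusted p = 1.66e-05).

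Gzmm, a granzyme typical of NK cells and other innate-type killer cells, had 2.65, 1.67, 0.67, 0.22 and 0.95 array medians in the allografts, against 0.10, 0.10, 0.48 and 0.20 in the isografts. It was the member with overlapping groups, since allograft 6 lay below isograft 13, and 2 of 5 allografts reached the array median. The log2 fold change was 2.36 (SE 0.58, limma adjusted p = 0.00421), and 1.46 with 0.25 array medians added.

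Gzmk, a tryptase-like granzyme of memory-type T cells, had 3.17, 2.85, 2.40, 2.63 and 2.88 array medians in the allografts, against 1.54, 1.41, 1.61 and 1.83 in the isografts. The groups were separate but close, with a log2 fold change of 0.80 (SE 0.17, limma adjusted p = 0.00118). It changed least of the 7.

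Klrk1, the receptor, had 3.10, 3.13, 2.01, 2.37 and 1.96 array medians in the allografts, against 0.70, 0.87, 0.24 and 1.01 in the isografts. Allografts 3 and 4 were again the highest. The log2 fold change was 1.99 (SE 0.33, limma adjusted p = 0.000154).

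Srgn, the granule scaffold, had 21.3, 28.0, 18.7, 27.3 and 19.8 array medians in the allografts, against 5.17, 6.2, 5.9 and 7.12 in the isografts. It had the smallest spread relative to its change, with a log2 fold change of 1.91 (SE 0.18, limma adjusted p = 4.39e-07). Within the array it stood at a median percentile of 97.8 in allografts and 89.0 in isografts. Markers of the other cells that make Srgn moved as well: 6 of 6 measured monocyte and macrophage markers and 4 of 4 neutrophil markers were higher in allografts, and 1 of 3 platelet markers, Pf4, was (0.89). The 9 mast cell markers had log2 fold changes from -1.52 to 1.15 with adjusted p-values of 0.144 or more. The part of these cells in the Srgn result was not tested.

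**Figure D1:**
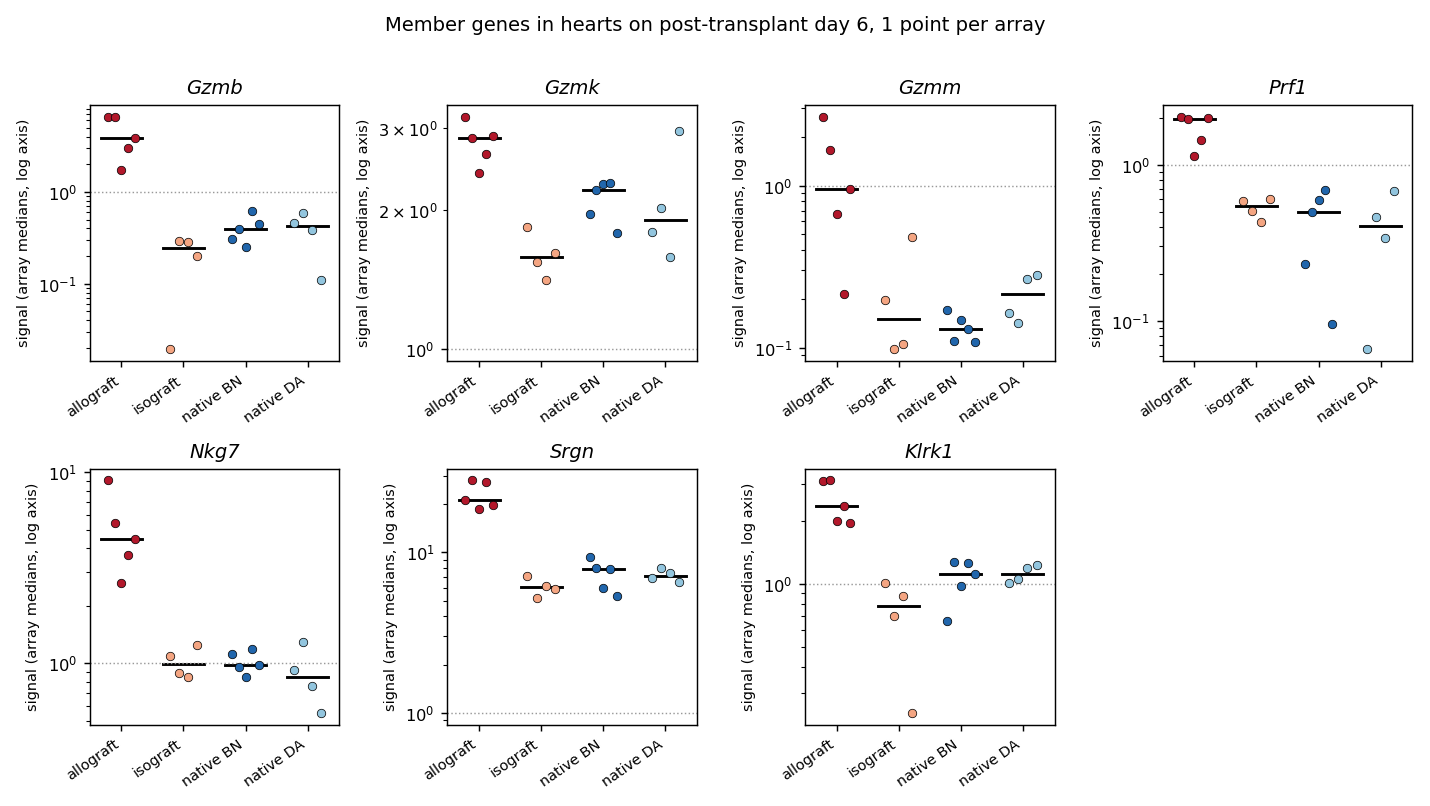
Signals of the 7 members measured in hearts, in array medians on a log axis, with 1 point per array, a black line at each group's median and a dotted line at 1 array median. Allografts lie above all isografts for every gene but Gzmm, where allograft 6 (0.22) lies below isograft 13 (0.48); of all probesets 15.4% separate the groups in this direction.

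The allografts differed among themselves in a similar order for several members. Allograft 5 was lowest for Gzmb, Gzmk, Prf1, Nkg7 and Srgn, and allograft 3 was highest for Gzmb, Gzmk, Gzmm, Prf1 and Nkg7. T cell markers, summed over 12 genes, were 49.1, 38.8, 23.0, 34.0 and 26.6 array medians in allografts 3 to 7, and NK cell receptor signals, summed over 13 genes, were 65.3, 55.3, 30.7, 44.9 and 47.4. Both sums were highest in allograft 3 and lowest in allograft 5. The NK sum was mostly Fcgr3a, which macrophages carry too, at 23.7 to 54.2 array medians in allografts, and 11 of its 13 genes were below the array median there. The cardiomyocyte sum over 9 genes was 272, 326, 136, 148 and 288 in the same order. The part of cell makeup in the spread among allografts was not tested.

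Against the native heart of the same recipient, which shares the circulating blood but is of strain BN, all 7 members were also higher in the allografts, and 4 were called (Gzmb, Nkg7, Prf1 and Srgn, the last at 2.95-fold without native BN heart 7), with 23.1% of all probesets passing as higher and 5.41% called higher. Gzmb in native BN hearts ran from 0.249 to 0.618 array medians, below every allograft, and its log2 fold change was 3.34 (SE 0.66, limma adjusted p = 0.00055). The smallest change was that of Gzmk, 0.41 (SE 0.16, limma adjusted p = 0.0465), which did not pass without allograft 3 (0.36, adjusted p = 0.104) or without native BN heart 7 (0.35, adjusted p = 0.109). With the recipient as a block all 7 still passed.

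The surgical effect is that of isografts against native DA hearts from the same rats, and 0 of the 7 members passed in limma (7.15% of all probesets passed as higher and 6.59% as lower). With ordinary variances 0 passed as well, and at an unadjusted p below 0.05 1 member was lower and 0 higher, beside 12.9% and 11.4% of all probesets. That gene was Klrk1, with 0.241 to 1.01 array medians in isografts and 1.01 to 1.23 in native DA hearts. Its log2 fold change was -0.84 (SE 0.35, limma adjusted p = 0.149), and it passed when isograft 9 was left out (-1.08, adjusted p = 0.0815). The log2 fold changes of the 7 ran from -1.29 to 0.86. Of 13 NK cell receptor genes, 4 were lower in isografts and none higher, Klrb1a most (-1.59, adjusted p = 0.0544).

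Native BN against native DA hearts, the strain effect in hearts, again gave 0 of 7 in limma (1.48% of all probesets passed as higher and 1.46% as lower), with 0 members at an unadjusted p below 0.05, where 6.96% of all probesets were higher and 6.86% lower, and 0 with ordinary variances. Their log2 fold changes ran from -0.63 to 0.27. Gzmb had 0.31, 0.39, 0.25, 0.62 and 0.45 array medians in native BN hearts, against 0.60, 0.39, 0.11 and 0.46 in native DA hearts 11, 12, 13 and 9, so the strains overlapped. The rejection effect exceeded the strain effect in the same fit for 6 of 7 members, with 14.1% of all probesets passing as higher in that contrast. Prf1 was the exception (difference 1.43 on the log2 scale, SE 0.85, limma adjusted p = 0.258), and it passed when native DA heart 9, at 0.07 array medians, was left out (2.14, adjusted p = 0.0325). For Gzmb the difference was 4.63 (SE 1.00, limma adjusted p = 0.00259). The strain effect here is that of native hearts, so the contrast does not take out strain differences of recipient cells within the grafts.

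Among all 18 hearts each member was highest in the allografts by median. Among the other 3 heart groups, neighbours in the order of medians overlapped for every member. The probeset shared by Gzmb and LOC100361261 stayed between 0.00923 and 0.14 array medians in allografts and between 0.0045 and 0.128 in isografts, at percentile 13.7 of the array or lower in both, and is not read further.

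Other genes serve the same granules. Of 15 measured genes of granule formation and release, 11 were higher in allografts and none lower, with a median log2 fold change of 0.62. Ctsc, cathepsin C, which removes the activating dipeptide from pro-granzymes, was highest among them (2.10, SE 0.20, adjusted p = 5.39e-07), followed by Ctsl (1.33), Vamp8 (1.21) and Calr (1.17). Protease inhibitors of the serpin family, listed together as granzyme inhibitors, also changed. Serpinb9, the inhibitor of granzyme B, was higher by 1.83 (SE 0.22, adjusted p = 4.74e-06). Serpinb1a was higher by 2.98 and Serping1 lower at -0.97, with 2 of 5 serpins not passing. Not every serpin listed is an established granzyme inhibitor. Of 2 other granzymes measured, Gzmf was higher (1.10, adjusted p = 0.00612) with a summed signal of both of at most 0.547 array medians in any allograft.

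Of 13 NK cell receptor genes, 7 were higher in allografts and none lower, with a median log2 fold change of 0.89. Fcgr3a, an Fc receptor that macrophages carry too, led with 5.01 (SE 0.22, adjusted p = 2.14e-10), followed by Klrc2 (2.78), Klra5 (2.32) and Klra22 (2.06). Ncr1, the receptor NKp46 that is largely limited to NK cells, did not pass (0.49, SE 0.74, adjusted p = 0.654), and neither did Klrb1c, Klrc1, Klrg1, Klrb1b or Ncr3. By group median, 11 of the 13 were below the array median in allografts. All 6 measured genes that relay signals of NKG2D and related receptors were higher, led by Lcp2 (3.92), Tyrobp (3.48), Plcg2 (2.21) and Vav1 (2.05). Myeloid cells use such genes too, Tyrobp and Plcg2 among them. T cell markers rose in 11 of 12 genes, with Cd8a at 5.06 (SE 0.63, adjusted p = 7.75e-06) and Cd3d at 4.53. Their summed signal was 23.0 to 49.1 array medians in allografts, against 6.69 to 7.85 in isografts. Of 9 cardiomyocyte markers 8 fell, Myh6 most (-5.31). How far the members follow the number of T or NK cells was not tested.

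A list of 13 genes joined death ligands, interferon gamma and chemokines with receptors (Fas, Ifngr1) and death pathway genes (Bid, Parp1, Dffa). Of these, 8 were higher and none lower, led by the lymphocyte chemokine Xcl1 (2.82, SE 0.53, adjusted p = 0.000437), Ccl3 (2.47) and Ccl4 (2.40). Bid (1.83) and Ifngr1 (1.10) were among the 8. Ifng, the cytokine that killer cells release together with granzymes, was higher by 1.84 (SE 0.70, adjusted p = 0.0503). Among 6 transcription factors of killer cells 4 were higher, Irf8 (1.79), Id2 (1.41), Nfil3 (0.55) and Prdm1 (0.42). The other 2, Runx3 (-0.16) and Hopx (-0.04), did not pass. Irf8 was also higher in isografts than in native DA hearts (0.77, limma adjusted p = 0.0897).

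Genes most like the members over the 18 hearts, by Pearson's r with the mean standardized member profile among 6314 genes, were Bcl2l11 (0.972), a BH3-only cell death protein, the T cell kinase Lck (0.965), the syndecan Sdc4 (0.963), the interferon-induced chemokine Cxcl9 (0.961) and Bid (0.961), a BH3-only protein that granzyme B cuts. All hearts share the division into allografts and others, so these are descriptions without a test.

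In blood, the strains differed before any transplant. PBMC of untransplanted BN rats had lower signals than PBMC of untransplanted DA rats for 7 of 8 members, from 1.81-fold lower for Gzmk to 4.29-fold lower for Gzma, and Gzma and Gzmb were called. Of all probesets 4.86% passed as lower, 3.58% passed as higher and 0.622% were called lower. Gzmb fell under 3-fold after quantile normalization (2.94-fold) and on the deposited scale (2.98-fold), still past the test. The members' median log2 difference was -1.02, beside -0.08 over all probesets.

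Gzma, the tryptase-like granzyme most abundant in killer granules, had 8.08, 11.5 and 9.37 array medians in untransplanted BN rats 1 to 3, against 43.6, 35.4 and 44.6 in untransplanted DA rats 1 to 3. The strains did not overlap, and the log2 difference was -2.10 (SE 0.30, limma adjusted p = 0.000291). On its array Gzma stood at a median percentile of 83.4 in BN and 96.8 in DA blood.

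Gzmb had 7.83, 12 and 8.47 array medians in untransplanted BN rats, against 35, 24.6 and 34.4 in untransplanted DA rats. BN rat 2 was the highest of its strain and DA rat 2 the lowest, without overlap. The log2 difference was -1.74 (SE 0.27, limma adjusted p = 0.000522), and by the second Gzmb probeset it was -2.24 (SE 0.27, adjusted p = 5.27e-05).

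Klrk1 had 7.53, 8.62 and 6.66 array medians in untransplanted BN rats, against 22.3, 20.4 and 14.6 in untransplanted DA rats, a log2 difference of -1.31 (SE 0.21, limma adjusted p = 0.000927). Prf1 had 38.2, 45.3 and 41.7 in untransplanted BN rats, against 90, 76.8 and 82.6 in untransplanted DA rats, and differed by -0.99 (SE 0.23, limma adjusted p = 0.013). For both genes every BN rat lay below every DA rat.

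Nkg7 ran from 17.7 to 26.7 array medians in untransplanted BN rats, against 41.4 to 45.1 in untransplanted DA rats (log2 difference -0.998, SE 0.25, limma adjusted p = 0.0207). Gzmm ran from 18.2 to 27.7 in untransplanted BN rats, against 42.8 to 52.8 in untransplanted DA rats (-1.05, SE 0.30, adjusted p = 0.0502). Gzmk ran from 26.6 to 38.2 in untransplanted BN rats, against 56.2 to 60.0 in untransplanted DA rats (-0.86, SE 0.28, adjusted p = 0.082). None of these ranges overlapped. Without untransplanted BN rat 1, Nkg7 (-0.855, adjusted p = 0.108), Gzmm (-0.91, adjusted p = 0.191) and Gzmk (-0.73, adjusted p = 0.267) no longer passed and 4 members passed, and Gzmk did not pass without rat 3 of the BN strain or without any DA rat either. Gzmm also did not pass without BN rat 3 (-1.04, adjusted p = 0.131), DA rat 1 (-0.96, adjusted p = 0.149) or DA rat 2 (-1.09, adjusted p = 0.101). After quantile normalization Gzmm (-0.83, adjusted p = 0.1003) and Gzmk (-0.63, adjusted p = 0.239) did not pass, nor did Gzmk on the deposited scale (-0.69, adjusted p = 0.159).

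Srgn was the member that did not pass, with 101, 122 and 97 array medians in untransplanted BN rats 1 to 3, against 141, 122 and 110 in untransplanted DA rats 1 to 3 (log2 difference -0.22, SE 0.17, limma adjusted p = 0.542). Its ranges overlapped, and its sign turned under quantile normalization (0.17).

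Markers of other cells differed between the strains beside the members. T cell markers were lower in untransplanted BN blood for 9 of 13 genes and higher for none, Cd8a (-1.99, SE 0.24, adjusted p = 5.27e-05) and Cd8b (-1.93) most, and their sum ran from 521 to 577 array medians in untransplanted BN rats, against 951 to 996 in untransplanted DA rats. The NK cell receptors were lower for 6 of 14 genes, Ncr1 (-1.46), Il2rb (-1.22) and Klrc2 (-1.03) among them, and higher for Ncr3 (1.69), and their sum ran from 138 to 145 in untransplanted BN rats and from 186 to 215 in untransplanted DA rats. Monocyte and macrophage markers were higher in BN for 8 of 10 genes. Their sum overlapped, from 304 to 373 in untransplanted BN rats and from 250 to 380 in untransplanted DA rats. Whether the members follow these shares of cells was not tested.

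Between transplanted rats, PBMC of allograft recipients against PBMC of isograft recipients hold strain and rejection together. All 8 members had a log2 difference below 0, and 1 passed as lower, Prf1, where 12% of all probesets passed as lower and 6.66% as higher, so the members' count does not stand above that background. The median of the members was -0.30, beside -0.03 over all probesets. At an unadjusted p below 0.05, 4 of 8 were lower, beside 16.4% of all probesets. Under quantile normalization 0 of 8 passed, and Gzmk and Srgn turned to log2 differences of 0.145 each, while Gzmk was 0.07 on the deposited scale and 0.05 without allograft recipient 7.

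Prf1 had 65.9, 39, 58.6, 41.6 and 34.9 array medians in allograft recipients 3 to 7, against a lowest of 48.3, a median of 65.8 and a highest of 81.6 in the 9 isograft recipients. Recipients 3 and 5 lay within the isograft range and the other 3 below it. The log2 difference was -0.47 (SE 0.16, limma adjusted p = 0.0526), and it did not pass without allograft recipient 4 (-0.41, adjusted p = 0.141), 6 (-0.43, adjusted p = 0.129) or 7 (-0.37, adjusted p = 0.174).

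Gzmb had 29.6, 15.6, 20.2, 15.8 and 11.8 array medians in allograft recipients, against 19.5, 23.8 and 27.5 as the lowest, median and highest isograft recipient. Allograft recipient 3 exceeded every isograft recipient and 3 others lay below all of them. The log2 difference was -0.41 (SE 0.18, limma adjusted p = 0.158). By the second Gzmb probeset, with 8.65 to 19.4 in allograft recipients and 15.6 to 24.7 in isograft recipients, it was -0.64 (SE 0.19, adjusted p = 0.028), and it did not pass without allograft recipient 7 (-0.50, adjusted p = 0.106). Without allograft recipient 3 the first probeset passed too (-0.59, adjusted p = 0.0195).

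Gzma had 39.6, 21.1, 31.5, 23.4 and 20.4 array medians in allograft recipients, against 25.5, 35.5 and 57.7 as the lowest, median and highest isograft recipient (log2 difference -0.51, SE 0.21, limma adjusted p = 0.116). Its groups overlapped, and it passed without allograft recipient 3 (-0.66, adjusted p = 0.0427), without isograft recipient 12 (-0.58, adjusted p = 0.0637) or 20 (-0.56, adjusted p = 0.0968).

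The other members differed by -0.06 (Gzmk) to -0.31 (Klrk1) on the log2 scale and did not pass. Recipient 3 was the highest allograft recipient for Gzma, Gzmb, Gzmm, Prf1, Nkg7 and Srgn, and recipient 7 was the lowest for every member but Srgn. The T cell sum was also highest in recipient 3 (387 array medians, against 229 to 276 in the other 4) and lowest in recipient 7 (229). T cell markers were lower in allograft recipients for 11 of 13 genes, Cd5 (-1.41) and Cd8a (-1.37) most, with a sum of 229 to 387 in allograft recipients and 367 to 624 in isograft recipients. NK cell receptors split, with 4 of 14 higher (Klra5 1.31, Klrb1b 1.21, Ncr3 0.99) and 4 lower (Il2rb -0.90), and neutrophil markers were higher for 4 of 6, S100a8 by 1.96, and lower for 1 (Camp, -2.96). The part of these cells in the members' values was not tested.

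**Figure D2:**
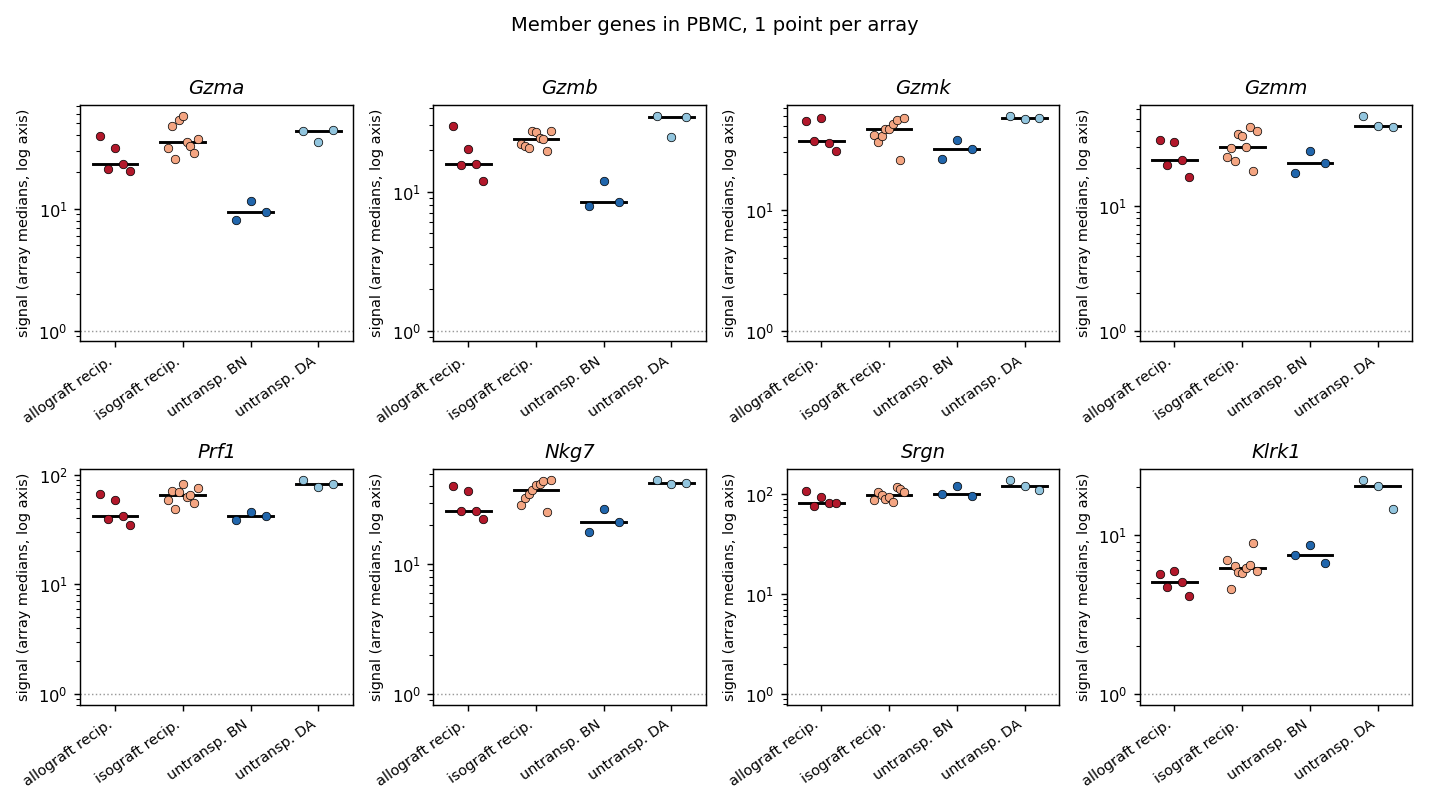
Signals of the 8 members in PBMC, in array medians on a log axis, with 1 point per array and a black line at each group's median. Untransplanted BN rats lie below untransplanted DA rats without overlap for all members except Srgn, as do 19.1% of all probesets, while allograft and isograft recipients overlap for all 8, where 3.19% of all probesets are lower without overlap.

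Among the listed serpins in blood, Serpinb1a was higher in untransplanted BN than in untransplanted DA blood (1.86, SE 0.31, adjusted p = 0.00121). It was also higher in allograft than in isograft recipients (2.00, SE 0.21, adjusted p = 4.01e-06), and Serpinb6a likewise (1.56 and 1.68). Serpinb9, the inhibitor of granzyme B, was lower in untransplanted BN than in untransplanted DA blood (-0.70, SE 0.19, adjusted p = 0.0393). Of 5 serpins 2 were thus higher and 1 lower there, and 2 were higher and none lower between recipients. Of 18 granule genes 6 were higher and 2 lower in allograft recipients, with Cd63 (1.06) and Cst7 (0.91) higher and Stx11, a syntaxin needed for granule release, lower (-0.83). Of 8 signalling genes Zap70 (-0.87) and Hcst, the DAP10 adaptor of NKG2D (-0.42, adjusted p = 0.0291), were lower and Tyrobp was higher (0.50). Of 14 measured genes of the list with death ligands, receptors and chemokines, 4 were higher and 6 lower in allograft recipients, Xcl1 most (-1.57). Of 9 transcription factors 2 were higher and 1, Stat4, was lower (-0.72).

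Setting both blood contrasts against each other subtracts the strain difference of untransplanted rats from the difference between recipients, in 1 fit. The subtraction removes strain only if strain and rejection add on the log2 scale and the processing batch acts alike in both strains. From such a ratio the paper lists Gzma and Gzmb among its candidates induced by rejection. Its threshold was a 3-fold ratio with an unadjusted p, unlike the adjusted p used here. For Gzmb its quantitative PCR, in the same animals, had the same direction. The paper warns that a non-additive interaction could have made its own choice of rejection genes unreliable. The result was above 0 for all 8 members, with a median of 0.78 beside 0.02 over all probesets, and 0 of 8 passed by their brightest probeset, in limma and with ordinary variances, where 0.213% of all probesets passed as higher. At an unadjusted p below 0.05, 5 of 8 were higher, beside 4.19% of all probesets. Gzma had the largest value, 1.59 (SE 0.37, a 3.01-fold ratio, limma adjusted p = 0.107), followed by Gzmb, 1.33 (SE 0.32, adjusted p = 0.144), and Klrk1, 1.00 (SE 0.26, adjusted p = 0.178). The second Gzmb probeset passed (1.599, SE 0.33, adjusted p = 0.0636), though not without allograft recipient 5 (1.5, adjusted p = 0.112), untransplanted BN rat 1 (1.48, adjusted p = 0.145) or 3 (1.54, adjusted p = 0.169), or untransplanted DA rat 1 (1.51, adjusted p = 0.16) or 3 (1.48, adjusted p = 0.113). Past the test were also Gzma and the first Gzmb probeset on quantile normalized, deposited and 0.25-shifted signals, with Gzma between 1.56 and 1.57 and Gzmb between 1.30 and 1.31. With 1 array left out the count was 0 or 1, with Gzma passing without isograft recipient 11, 14 or 16, Gzmb without allograft recipient 7 and Klrk1 without isograft recipient 20 or untransplanted DA rat 3. Srgn was at 0.05 (adjusted p = 0.971) and at -0.02 under quantile normalization.

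Titles of the arrays carry different prefixes for transplanted and untransplanted rats, and the paper states that they were processed in separate batches. Within a strain, transplantation and batch therefore cannot be told apart. The median of all probesets was -0.15 in BN and -0.19 in DA on this scale but 0.33 and 0.32 on the deposited scale. Members were at or above the array median on every PBMC array. Probesets past the signal criterion of a call had medians of -0.483 in BN and -0.4998 in DA on this scale. On the deposited scale these medians were -0.00245 and 0.0127. Within BN, Gzma (1.46, SE 0.27, adjusted p = 0.000848) and Gzmb (0.93, SE 0.24, adjusted p = 0.00623) were higher in allograft recipients and Klrk1 was lower (-0.58). Of all probesets 12.3% passed as higher and 29.5% as lower there. Within DA, Klrk1 was lower in isograft recipients (-1.58, SE 0.17, adjusted p = 2.44e-05), with 4.62 to 8.94 array medians against 14.6 to 22.3 in untransplanted DA rats. That comparison had 14.9% of all probesets higher and 32.4% lower, and Gzmm (-0.61) and Srgn (-0.32) also passed as lower. Beside the median of probesets past the signal criterion, Klrk1 in BN (-0.58 against -0.483) and Gzmm in DA (-0.61 against -0.4998) were little lower. Srgn in DA lay above that median, and Klrk1 in DA well below it. Gzma and Gzmb in BN and Klrk1 in DA passed in the same direction on the deposited scale and after quantile normalization. Klrk1 in BN and Gzmm in DA did not pass on either scale. In BN, Nkg7 (1.02, adjusted p = 0.00258), Prf1 (0.72, adjusted p = 0.0065), Gzmk (0.98, adjusted p = 0.00913), Gzmm (0.72, adjusted p = 0.0485) and Srgn (0.27, adjusted p = 0.033) also passed as higher after quantile normalization, and all of these but Srgn on the deposited scale, so that 7 and 6 of 8 were higher and none lower. Shares of all probesets passing on those scales were not counted, so no background stands beside these counts. Srgn in DA passed in the opposite direction after quantile normalization (0.29, adjusted p = 0.0125) and did not pass on the deposited scale (0.19, adjusted p = 0.166). Klrk1 in BN did not pass without untransplanted BN rat 2 (-0.48, adjusted p = 0.113). In DA, Gzmm did not pass without untransplanted rat 1 (-0.52, adjusted p = 0.197) or 2 (-0.64, adjusted p = 0.109), nor Srgn without untransplanted rat 1 (-0.23, adjusted p = 0.3) or 2 (-0.33, adjusted p = 0.142) or isograft recipient 9, 14 or 17.

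By median level, Gzma was at 23.4 array medians in allograft recipients, 35.5 in isograft recipients, 9.37 in untransplanted BN rats and 43.6 in untransplanted DA rats, and of the neighbours in level only allograft recipients and untransplanted BN rats did not overlap. Gzmb, Gzmk, Gzmm and Nkg7 had the same order, with each neighbouring pair overlapping for the first Gzmb probeset and the other 3. Klrk1 had another order: 5.11 in allograft recipients, 6.21 in isograft recipients, 7.53 in untransplanted BN rats and 20.4 in untransplanted DA rats, the last apart from the others. Srgn had the order of Klrk1, with each neighbouring pair overlapping. For Prf1, untransplanted BN rats (41.7) lay just above allograft recipients (41.6), with overlap.

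Graft and blood are given side by side because the array types cannot be tested against each other. For Gzmb the log2 difference between allografts and isografts was 4.86 in hearts and -0.41 in PBMC of recipients, by the same probeset. For Nkg7 it was 2.21 in hearts and -0.29 in PBMC, and for Klrk1 it was 1.99 in hearts and -0.31 in PBMC. The other 4 lay between 0.80 (Gzmk) and 2.36 (Gzmm) in hearts and between -0.47 (Prf1) and -0.06 (Gzmk) in PBMC. All 7 were above 0 in the graft and below 0 in blood. The blood values become positive for all 7 once the untransplanted strain difference is subtracted. They then lie between 0.05 for Srgn and 1.33 for Gzmb, none of them past the test.

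**Figure D3:**
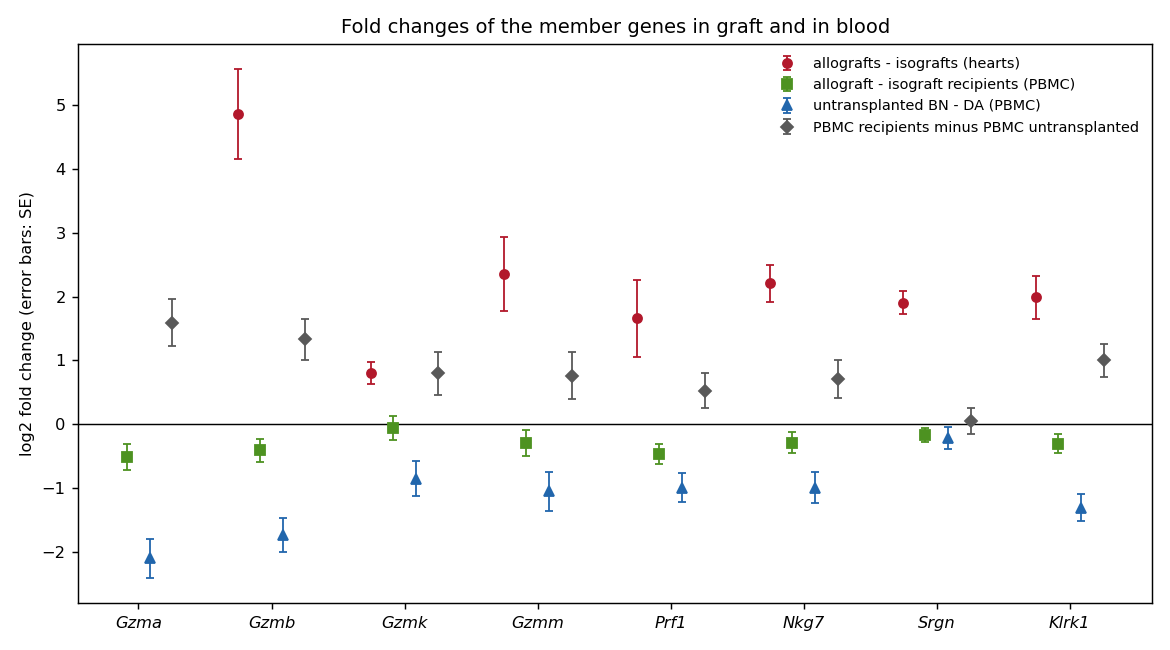
Log2 fold changes with SE of each member by its brightest probeset: allografts minus isografts in hearts, allograft minus isograft recipients in PBMC, untransplanted BN minus DA in PBMC, and the difference of the 2 PBMC contrasts. Heart values lie above 0 (0.80 to 4.86), both PBMC contrasts below 0, and their difference at 0.05 to 1.59. Gzma was measured in PBMC only.

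**Figure D4:**
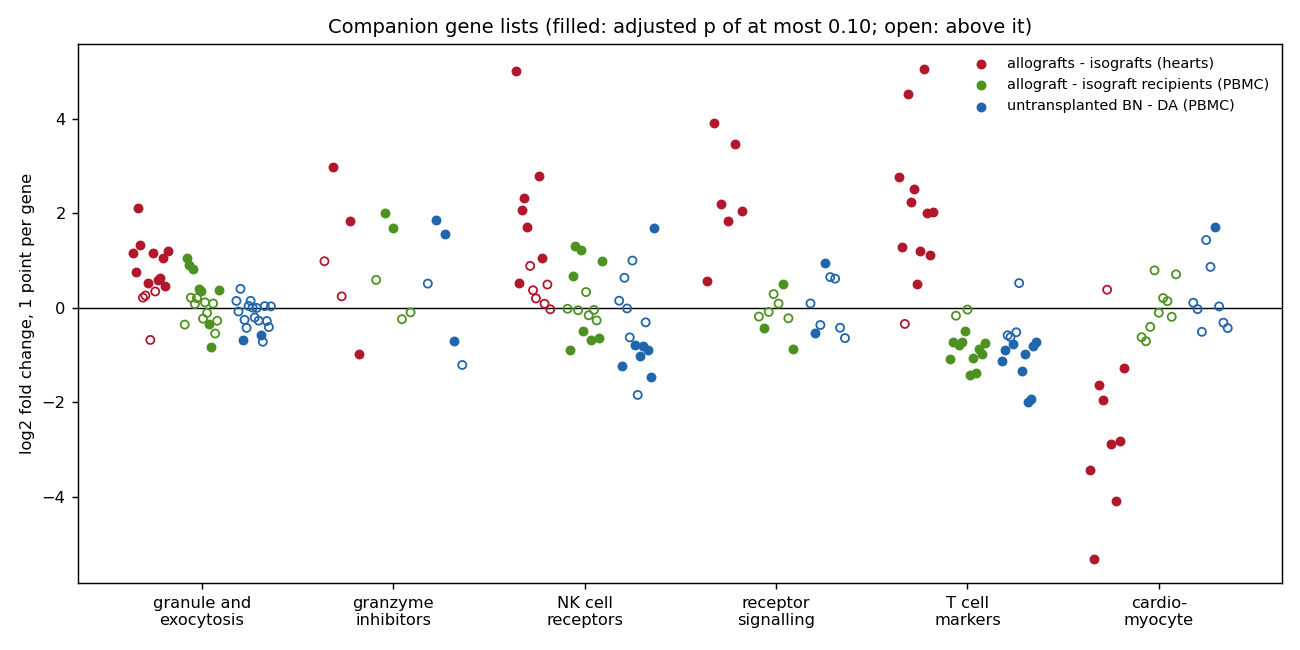
Log2 fold changes of the genes in 6 companion lists, 1 point per gene, in hearts (allografts minus isografts) and in PBMC (allograft minus isograft recipients, and untransplanted BN minus DA), filled where the adjusted p was at most 0.10. T cell markers are higher in allografts (11 of 12) and lower in both PBMC contrasts (11 and 9 of 13).

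Within the 9 isograft recipients, members could be compared with Gzmb across rats of 1 group. Gzmm followed Gzmb most closely (Pearson's r 0.868, exact permutation p = 0.00395, Benjamini-Hochberg 0.0234 over 7 relations, Spearman's rho 0.80 with exact permutation p = 0.0138, adjusted 0.0595), and r was 0.712 without the 2 rats farthest from the median of Gzmb. Prf1 (r 0.803, exact p = 0.00999, adjusted 0.0234, and 0.641 without those 2), Nkg7 (0.773, exact p = 0.017, adjusted 0.0297) and Gzmk (0.767, exact p = 0.01, adjusted 0.0234) followed it as well, with rho of 0.70 to 0.75. Gzma had r 0.685 (exact p = 0.0482, adjusted 0.0674) and 0.445 without those 2 rats. For Srgn r was -0.277 (exact p = 0.459) and for Klrk1 -0.425 (exact p = 0.268). By rank, adjusted p-values were 0.0595 to 0.0606 for the 5 that followed and higher for the other 2. All 9 arrays share a title prefix, each value was divided by its own array's median, and groups of fewer than 6 rats were not used.

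Over the 14 PBMC arrays of recipients, the 5 genes most like the mean member profile among 8997 were Focad (Pearson's r 0.916), Il2rb (0.88), the receptor chain for interleukin 2 and 15 on killer cells, Gabarapl1 (0.879), Atp2a3 (0.878) and Calcoco1 (0.871). None of them was among the 5 most like genes in hearts, where 6314 genes were compared. The 14 arrays pool BN allograft and DA isograft recipients, so these are descriptions without a test.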

How the data were processed

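Signal intensities were deposited by the authors, who derived them with MAS5 (version not given in the sources used here). A check showed each array's signals to share 1 trimmed mean, with 2% cut at each end. Following the methods, arrays were divided by their median over non-control probesets and log transformed (log2). The 57 control probesets per array type were left out, and present calls were not used here. Gene names came from the platform annotation (12783 heart and 20826 PBMC probesets with 1 symbol), brought to current symbols.

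In limma 3.58.1 (R 4.3.3), lmFit and eBayes estimated 4 group means per tissue, with Benjamini-Hochberg adjustment over 15866 heart or 31042 PBMC probesets. Each array is 1 rat's sample, and precision rests on how many arrays a group has. The code was tested on simulated data. Correlations used exact permutations (two-sided).

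All 8 members are named, each represented by its brightest probeset. From every companion list up to 4 genes with the biggest passing change are named, and any further gene was chosen after its values were seen. The members and lists were chosen with earlier results of these data known.

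Native and transplanted hearts of 1 number come from the same recipient by their labels. Their correlations after removal of group means were -0.04 to 0.12 (allograft recipients) and -0.04 to 0.07 (isograft recipients). Alternatives changed the normalization, the added constant, the samples fitted, the adjustment, the variance, the block and the probeset summary, and left out each array. Those for transplanted against untransplanted rats were chosen after seeing the data.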

Additional observations from a re-analysis of the deposited data

Results flagged for a closer look

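Gzmb in isograft 9 was at 0.0193 array medians, far below the other 3 isografts (0.203 to 0.29), and stood apart by Dixon's criterion. It was the 1 array apart among 44 groups of member values tested, where chance alone sets apart about 1 group in 20. The Gzmb log2 fold change in hearts was 3.93 without it and 4.86 with it.

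The difference between allografts and isografts exceeded the difference between native BN and native DA hearts for 6 members, by a test of the difference itself (limma). On the log2 scale the excess was 4.63 for Gzmb (adjusted p = 0.00259), 2.99 for Gzmm (0.0141), 2.10 for Klrk1 (0.00349), 1.94 for Nkg7 (0.0027), 1.92 for Srgn (4.75e-05) and 0.76 for Gzmk (0.029). These 6 differences passed under every alternative that could give a value.

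In PBMC the same kind of difference, between recipients minus between untransplanted rats, passed for the second Gzmb probeset (1.599, adjusted p = 0.0636, and 0.112 to 0.169 with any 1 of 5 arrays left out, named in the account of that comparison) and did not pass for the first (1.33, adjusted p = 0.144).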

How the results depend on the processing

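Of 183 alternative counts of members passing, 155 stayed within 1.5 times the reported count and 28 did not. Of 1156 alternative values of single members, isografts against native DA hearts and the heart strains left aside, 1059 kept direction and their side of the adjusted p threshold, 33 no longer passed, 40 newly passed and 24 turned in sign. In hearts, 7, 7, 0, 0 and 6 members passed in the 5 comparisons with the recipient as a replicate block, as without it, so the pairing changed no count. With the replicate number as a block, 6 members in place of 7 passed between untransplanted strains, Gzmk being lost (adjusted p = 0.107), but those rats share only a number (correlations 0.003 to 0.037).

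Leaving out 1 array gave 0 to 1 members for isografts against native DA hearts, 4 to 7 between untransplanted strains, 0 to 3 between recipients, 0 to 1 for the difference of both blood contrasts and 1 to 4 for isograft recipients against untransplanted DA rats. Between recipients, quantile normalization and a fit of only those groups gave 0, while 0.25 added array medians, adjustment over probesets past the signal criterion, and the mean of a gene's probesets gave 2. For the difference of blood contrasts, quantile normalization, deposited scaling and 0.25 added array medians gave 2, and the signal criterion and the probeset mean gave 1. Recipients against untransplanted BN rats gave 7 after quantile normalization and 6 on the deposited scale, all higher, and DA gave 1 on the deposited scale. Shares of all probesets under these alternatives were not counted.

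Signs turned as follows on the log2 scale. Between recipients Srgn and Gzmk were 0.145 after quantile normalization, Gzmk was 0.0719 on the deposited scale and -0.174 to 0.0513 with 1 array left out. Between untransplanted strains Srgn was 0.169 after quantile normalization. In the difference of blood contrasts Srgn was -0.0245 after quantile normalization and -0.0435 to 0.152 with 1 array left out. In BN, recipients against untransplanted rats, Srgn was 0.269 after quantile normalization and 0.21 on the deposited scale. In DA, the values after quantile normalization and on the deposited scale were 0.342 and 0.256 for Nkg7, 0.294 and 0.192 for Srgn, 0.265 and 0.149 for Prf1, 0.207 and 0.117 for Gzmb, 0.479 and 0.385 for Gzma, 0.2004 and 0.106 for Gzmk, and Gzmm was 0.00411 after quantile normalization. The deposited scale leaves out only the division by array medians. Those were 20.2 to 21.2 in untransplanted DA rats and 26.6 to 34.4 in isograft recipients. In BN they were 22.2 to 23.7 in untransplanted rats and 27.4 to 36.8 in allograft recipients. Why the array medians differed was not tested, nor was the cause of the turns under quantile normalization.

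Signals below the array median are weak, so the size of the heart fold changes of Gzmb, Gzmm and Prf1 depends on the added constant. With 0.25 array medians added, their log2 fold changes between allografts and isografts fell from 4.86, 2.36 and 1.66 to 3.27, 1.46 and 1.30. Gzmm has no heart value under the signal criterion, and each member has 1 heart probeset, so a mean over probesets applied to blood only.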
